A study of Mus musculus with 2 samples.

Results

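Antisense and opposite-strand noncoding genes are transcription units named after a protein-coding neighbour, with the suffix "os" or "as" for the strand they are read from. The members were the rows of the deposited count table typed as lncRNA or ncRNA whose symbol ends in such a suffix, without Hk1os, and with at least 10 counts over both libraries. This gave 35 genes of 44792 rows, all typed lncRNA, out of 120 rows with the suffix, of which 62 had 0 counts in both libraries and 23 had 1 to 9. Beside name and type, they were selected on the sum of their counts in both libraries. Hk1os, which the rule leaves out by name, had 63 counts in the force library and 13 in the control library, a log2 ratio of 2.28 with an interval of the ratio of 2.72 to 9.91, and would be called higher by the rule used below. Just inside the count minimum lay Kif16bos, with 9 counts in the force library and 2 in the control library, and Ppp1r3fos, with 7 and 6. Just outside it lay Fam211aos1, with 5 and 4 counts, and Mkln1os, with 6 and 3.

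The libraries came from OCCM-30, an immortalized mouse line with features of cementoblasts, which form the cementum of tooth roots. Total RNA was taken from cells under compressive force for one library and from control cells for the other, all kept in DMEM with serum. How strong the force was and how long it acted is not stated here. With 1 library in each group no difference has a replicate check, no p-value was computed, and every value compares the libraries and not the conditions. The intervals are exact 95% intervals for counting error alone, and sequenced reads are not independent molecules. In bulk RNA, fewer cells that express a gene and less RNA per cell cannot be told apart.

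Depth was 24296292 counts in the force library and 25049919 in the control library. Of 7 cementoblast and osteoblast markers, 5 reached 1 CPM (counts scaled to library size), among them Col1a1, Alpl and Sp7, while bone sialoprotein (Ibsp) had no count in either library and osteocalcin (Bglap) had 12 and 11. The summed level of the 3 macrophage markers in the table was 7.78 CPM in the force library and 7.46 CPM in the control library, that of 4 epithelial markers 1.94 and 1.84 CPM, and that of 3 endothelial markers 4.32 and 4.15 CPM. Ptprc and Epcam were at 0 in both. The part of other cell types in the results was not tested.

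Antisense transcription often starts close to the promoter of the sense gene, since many mammalian promoters are read in both directions. Such RNAs can act on the gene beside them, by recruiting chromatin factors, by pairing with the sense transcript or through the act of transcription, and many have no known function. Others carry a separate product, as Dnm3os does, which is the host transcript of the microRNAs miR-199a and miR-214. Well-studied examples lie at developmental loci such as those of the Dlx and Hox genes.

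The position of 34 of the 35 genes was found in a RefSeq table of GRCm38.p6, 30 by symbol and 4 by an older name. Runx2os2 was the gene without a match. Chd3os is listed there as Rnf227, Ccdc41os1 as Cep83os, Ppp1r3fos as Flicr, a noncoding gene whose span overlaps that of Foxp3, and Toporsos as Smim27. RefSeq types Smim27 as protein coding, against the lncRNA type that the deposited table gives Toporsos. The spans of 20 genes overlapped that of the sense gene and those of 14 lay apart from it, with 10 to 4521 bases between the spans and 11 of the 14 within 500 bases. The strand of both partners was in the RefSeq promoter table for 19 pairs, and all 19 were on opposite strands.

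Of these 19 pairs, 7 were divergent, with the genes back to back and no overlap. A further 12 overlapped. In 6 of the 12 the noncoding gene started within 1000 bases after the start of the sense gene and ran back across it, as in Phtf1os and Tomm6os. In 3 it lay inside the sense gene (Kank4os, Dnm3os and Bach2os), and in 3 it started past the end of the sense gene and ran into it (Rab10os, Chn1os3 and Zfp85os). The counting may or may not have used strand, which the sources do not state, so where exons of a pair overlap, reads of the partners cannot be told apart.

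**Figure D1:**
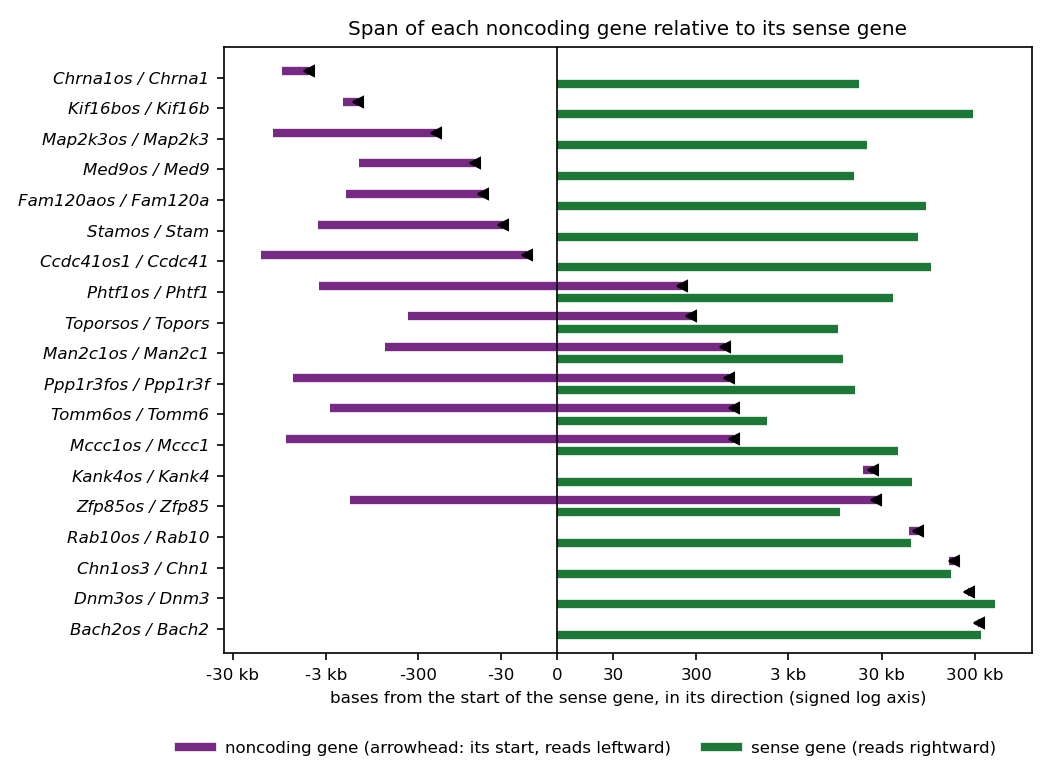
Spans of 19 noncoding genes (purple, arrowhead at the start) and their sense genes (green), in bases from the start of the sense gene on a signed log axis. The upper 7 pairs are divergent, and the other 12 overlap.

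Promoters are shown for a pair of divergent genes and for the 3 genes called below, from RefSeq on GRCm38.p6. Each runs from 250 bases before the start of the noncoding gene to 50 bases after it, 5′ to 3′ on its own strand. In Map2k3os (chr11:60931818-60932117, minus strand) and Fam120aos (chr13:48967862-48968161, plus strand), capitals mark the bases between the start of the noncoding gene and that of the sense gene, 186 bases for Map2k3os and 51 for Fam120aos. These stretches are shown because 1 short sequence lies upstream of both partners of each pair.
Map2k3os: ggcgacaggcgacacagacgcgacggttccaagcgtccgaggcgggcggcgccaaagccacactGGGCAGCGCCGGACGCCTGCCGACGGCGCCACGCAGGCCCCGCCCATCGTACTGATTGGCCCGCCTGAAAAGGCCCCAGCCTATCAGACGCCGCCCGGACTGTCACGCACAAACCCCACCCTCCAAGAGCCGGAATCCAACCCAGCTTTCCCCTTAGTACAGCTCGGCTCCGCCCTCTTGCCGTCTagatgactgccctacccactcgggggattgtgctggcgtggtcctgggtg
Fam120aos: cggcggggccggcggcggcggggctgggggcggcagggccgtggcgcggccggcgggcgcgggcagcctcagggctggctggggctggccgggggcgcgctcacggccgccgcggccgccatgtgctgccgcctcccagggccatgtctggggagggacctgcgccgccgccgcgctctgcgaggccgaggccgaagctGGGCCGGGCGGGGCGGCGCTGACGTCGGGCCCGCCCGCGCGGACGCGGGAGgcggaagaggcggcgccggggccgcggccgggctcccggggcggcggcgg

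In Rbm3os (chrX:8145177-8145476, plus strand), Toporsos (chr4:40269329-40269628, plus strand) and Chn1os3 (chr2:73596276-73596575, plus strand), capitals mark ACGTG or GCGTG on either strand, the core letters bound by hypoxia-inducible factors. Matches were counted on each strand, so CACGTG counts as 2 matches.
Rbm3os: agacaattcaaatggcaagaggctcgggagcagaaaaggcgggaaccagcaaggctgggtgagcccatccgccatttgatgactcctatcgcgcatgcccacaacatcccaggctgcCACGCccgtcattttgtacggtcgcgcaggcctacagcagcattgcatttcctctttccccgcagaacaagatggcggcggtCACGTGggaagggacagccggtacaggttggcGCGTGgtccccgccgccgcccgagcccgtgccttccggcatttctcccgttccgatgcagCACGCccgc
Toporsos: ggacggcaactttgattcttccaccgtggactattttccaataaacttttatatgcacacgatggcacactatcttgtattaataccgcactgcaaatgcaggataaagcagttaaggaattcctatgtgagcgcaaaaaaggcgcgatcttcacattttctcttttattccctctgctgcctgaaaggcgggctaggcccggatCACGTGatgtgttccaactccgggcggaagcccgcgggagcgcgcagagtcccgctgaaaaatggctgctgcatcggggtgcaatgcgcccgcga
Chn1os3: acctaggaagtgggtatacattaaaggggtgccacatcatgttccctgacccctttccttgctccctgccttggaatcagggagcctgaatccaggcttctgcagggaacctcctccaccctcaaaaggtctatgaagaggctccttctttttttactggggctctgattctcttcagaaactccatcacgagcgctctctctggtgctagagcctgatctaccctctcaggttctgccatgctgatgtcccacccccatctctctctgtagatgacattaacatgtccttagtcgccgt

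The Rbm3os window held 5 matches, the Toporsos window 2, and the Chn1os3 window none. Of 25 promoter windows of the noncoding genes, 8 held ACGTG (32.0%) and 7 held GCGTG (28.0%) on either strand. The shares over the promoters of 27025 genes, 1 window a gene, were 19.7% and 32.5%. GGGCGG, the letters bound by Sp-family factors, was in 13 of the 25 (52.0%), against 35.9% of all promoters, 47.7% of mRNA promoters and 26.7% of lncRNA promoters. The windows of the 25 sense genes with an entry held GGGCGG in the same share, 52.0%, ACGTG in 4.0% and GCGTG in 52.0%. The median CpG observed-to-expected ratio was 0.676 in the 25 windows, 0.794 in the sense windows, and 0.299 in the windows of 1670 lncRNA rows of the table. The GC content had medians of 62.0%, 64.3% and 50.3% in the same order. The windows of close divergent partners, such as Map2k3os and Map2k3, share most of their bases. The noncoding and sense windows are also not all from the same pairs. A match describes only the letters of the window.

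As a class the noncoding genes held nearly the same summed level in both libraries. Their counts summed to 3039 in the force library and 3087 in the control library, or 125.1 and 123.2 CPM after scaling by trimmed mean of M-values (TMM). The level of single genes ran from 0.124 CPM through a median of 1.65 CPM to 18.0 CPM in the force library, and from 0.0798 CPM through 1.28 CPM to 17.3 CPM in the control library. The ratio of the force to the control library was above 1 for 22 genes and below 1 for 13. The median log2 ratio was 0.21, with quartiles of -0.20 and 0.58, while the 1733 lncRNA rows with at least 10 counts had a median of 0.09 with quartiles of -0.35 and 0.59. The 17085 rows of any type with at least 10 counts had a median of -0.00.

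**Figure D2:**
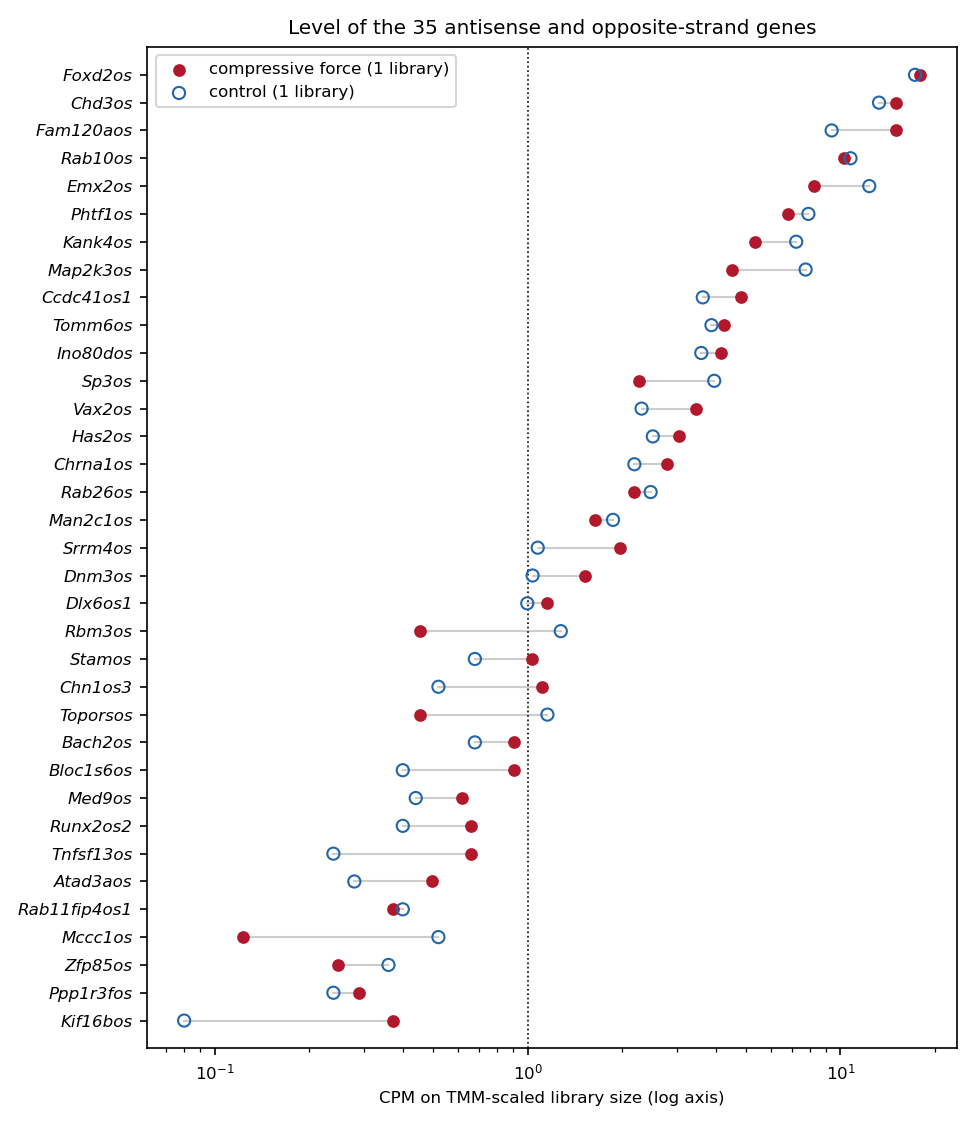
Level of the 35 noncoding genes in CPM on a log axis, in the force library (filled red) and the control library (open blue), ordered by total counts. The dotted line marks 1 CPM, which 24 genes reached in at least 1 library, and the widest gaps lie among genes near or below it.

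The counting interval of the ratio was above 1 for 7 of the 35 genes (20.0%) and below 1 for 7 (20.0%), and included 1 for 21. Among all rows with at least 10 counts the shares were 23.0% above and 24.5% below, and among lncRNA rows 15.1% above and 11.5% below. These shares move with depth, since an interval narrows as counts grow. A gene was called when it reached 1 CPM in either library, differed by a ratio of 2 or more, or 0.5 or less, with a prior count of 0.5, and had an interval without 1. By that rule 1 gene was called higher and 2 lower, among 24 that reached 1 CPM, while 11 did not reach it. Over all 14001 rows at 1 CPM, 3.06% were called higher and 0.929% lower, and over 918 lncRNA rows 7.84% and 3.38%. All 3 called genes had fewer than 50 counts over both libraries, and each reached 1 CPM only in the library where it was higher. The CPM minimum and the call were therefore not independent for them.

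The called genes sit beside an RNA-binding protein, a ubiquitin ligase and a signalling protein. Rbm3os, beside the cold-inducible RNA-binding protein gene Rbm3, had 11 counts in the force library and 32 in the control library, or 0.453 and 1.28 CPM. Its ratio was 0.355 (0.161 to 0.722), and 454 bases of its span on chromosome X, at 8145427 to 8147964, overlap that of Rbm3. Rbm3 itself had 6912 and 7243 counts, a ratio of 0.985 (0.953 to 1.02), so its counts were close in both libraries where those of Rbm3os were not.

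Toporsos, at 40269579 to 40270228 on chromosome 4, starts 262 bases inside Topors, which encodes a ligase for ubiquitin and SUMO. RefSeq lists Toporsos as Smim27 and types it as protein coding. Toporsos had 11 counts in the force library and 29 in the control library, or 0.453 and 1.16 CPM. Its ratio was 0.391 (0.176 to 0.807). Topors had 3527 and 4623 counts, a ratio of 0.787 (0.753 to 0.823). Both partners were lower in the force library, and the count ratio of the pair had an interval that included 1.

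Chn1os3 was the gene called higher, with 27 counts in the force library and 13 in the control library, or 1.11 and 0.519 CPM. Its ratio was 2.14 (1.07 to 4.52). Its log2 ratio was 1.07 with the prior count of 0.5 and 0.87 with a prior count of 5, at which it was not called. It lies on chromosome 2 at 73596526 to 73616012 and runs into the end of Chn1, the gene of the Rac-regulating protein chimaerin 1. Chn1 had 18 and 13 counts, a ratio of 1.43 (0.662 to 3.17). Chrna1os lies on the same strand of this chromosome, upstream of Chn1os3, next to the muscle acetylcholine receptor gene Chrna1. It had 68 and 55 counts, a ratio of 1.28 (0.881 to 1.85).

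The 8 genes beside transcription factors had ratios on both sides of 1. Of these, 5 reached 1 CPM and none was called, against 3.06% called higher and 0.929% lower over all rows at 1 CPM, while Bach2os, Runx2os2 and Zfp85os did not reach it and could not be called. Emx2os, 54 bases from the homeobox gene Emx2 on chromosome 19 and typed antisense RNA by RefSeq, had 200 counts in the force library and 310 in the control library. Its ratio was 0.666 (0.555 to 0.798), and that of Emx2, with 157 and 187 counts, was 0.866 (0.696 to 1.08). Sp3os, at the start of the Sp-family factor gene Sp3 on chromosome 2, had 55 and 99 counts and a ratio of 0.573 (0.405 to 0.805). Sp3 had 1392 and 1581 counts, a ratio of 0.909 (0.845 to 0.977). Both noncoding genes had fewer counts in the force library, and their intervals lay below 1.

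Vax2os, beside the homeobox gene Vax2, had 84 and 58 counts, a ratio of 1.49 (1.06 to 2.13). Vax2 had 54 and 34 counts, a ratio of 1.64 (1.05 to 2.60). Foxd2os, 358 bases from the forkhead gene Foxd2 on chromosome 4, had the most counts of the 35 genes, 437 in the force library and 434 in the control library, and its interval of 0.908 to 1.19 included 1. Foxd2 had 43 and 59 counts. Runx2os2 is named for Runx2, the factor that drives osteoblast differentiation. It had 16 counts in the force library and 10 in the control library, against 4416 and 5788 for Runx2, and the interval of Runx2os2 included 1. Dlx6os1, whose span overlaps the homeobox gene Dlx6, had 28 and 25 counts. Bach2os had 22 and 17 counts and Zfp85os 6 and 9, and all 3 intervals included 1. Bach2, a B-lymphocyte transcription factor gene, had 17 counts in the force library and 5 in the control library, a ratio of 3.51 (1.24 to 12.2), below 1 CPM in both.

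Genes beside signalling, matrix and cell-surface genes included a divergent pair in which both partners were lower in the force library. Map2k3os, on chromosome 11 at 60920941 to 60931867, had 109 counts in the force library and 194 in the control library, a ratio of 0.580 (0.454 to 0.737). Map2k3, which encodes a kinase that activates p38 in stress signalling, had 2368 and 3450 counts and a ratio of 0.708 (0.672 to 0.747). The pair shares the stretch printed in capitals above, and the count ratio of Map2k3os to Map2k3 did not differ beyond counting error, at 0.819 (0.638 to 1.05) in the force over the control library.

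Has2os lies wholly within the span of Has2, the hyaluronan synthase of many mesenchymal cells, on chromosome 15 at 56689944 to 56694460. Has2os had 74 counts in the force library and 63 in the control library, a ratio of 1.21 (0.854 to 1.72). Has2 had 584 and 830 counts, a ratio of 0.726 (0.652 to 0.808). The sense gene was lower in the force library, and Has2os had no difference beyond counting error. Tnfsf13os, beside the cytokine gene Tnfsf13 (APRIL), had 16 and 6 counts, a ratio of 2.75 (1.02 to 8.59), below 1 CPM in both libraries, and Tnfsf13 had no count in either. Its span also overlaps those of Tnfsf12, with 387 and 296 counts, and of the SUMO protease gene Senp3, with 2254 and 3074.

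Among genes beside membrane traffic genes, the one with the most counts had a ratio close to 1. Rab10os, which runs into the end of the small GTPase gene Rab10 on chromosome 12, had 249 counts in the force library and 270 in the control library, a ratio of 0.952 (0.798 to 1.13). Rab10 had 3763 and 4238 counts, a ratio of 0.916 (0.877 to 0.958). Bloc1s6os had 22 and 10 counts, a ratio of 2.27 (1.03 to 5.37), and was below 1 CPM in both libraries. Bloc1s6 had 1489 and 1302 counts, a ratio of 1.18 (1.09 to 1.27). Stamos, which starts 28 bases from the endosomal sorting gene Stam, had 25 and 17 counts, and its interval included 1. Stam had 2524 and 1957 counts, a ratio of 1.33 (1.25 to 1.41). Rab26os had 53 and 62 counts and Rab11fip4os1 9 and 10, while Rab26 and Rab11fip4 had none. A count of 0 bounds the reads assigned to a row at 0.124 CPM (force) and 0.120 CPM (control). How reads of overlapping genes were assigned is not stated, so a count of 0 does not show that a transcript was absent.

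Dnm3os lies inside the span of Dnm3, a dynamin gene of membrane fission, on chromosome 1 at 162217623 to 162225550. It had 37 counts in the force library and 26 in the control library, a ratio of 1.47 (0.866 to 2.53), and Dnm3 had 99 and 92. The microRNA loci inside its span had rows of their own. Counts in these rows may be reads of the host transcript and are not levels of the mature microRNAs. Mir199a-2 had 33 and 27 counts, and Mir214 had 57 and 40, with a ratio of 1.47 (0.964 to 2.26). All 3 intervals included 1. The 4 mature microRNAs of these loci are shown with the seed, bases 2 to 8, in capitals, from RefSeq on GRCm38.p6, plus strand; no seed is shared among them.
miR-199a-5p: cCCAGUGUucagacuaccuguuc
miR-199a-3p: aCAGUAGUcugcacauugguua
miR-214-5p: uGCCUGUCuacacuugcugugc
miR-214-3p: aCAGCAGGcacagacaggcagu

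Genes beside chromatin and transcription machinery had intervals that included 1. Chd3os, near the remodeller gene Chd3 on chromosome 11, had 365 counts in the force library and 333 in the control library, a ratio of 1.13 (0.972 to 1.32), and Chd3 had 9356 and 9663. Ino80dos had 101 and 90 counts, and its span overlaps that of Ndufs1, a complex I subunit gene with 3507 and 3956 counts. Med9os, divergent from the Mediator gene Med9, had 15 and 11 counts.

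Beside mitochondrial genes, Tomm6os had 103 counts in the force library and 97 in the control library, a ratio of 1.10 (0.822 to 1.46). Tomm6, a subunit of the import channel of the outer membrane, had 5941 and 5166 counts, a ratio of 1.19 (1.14 to 1.23). Atad3aos had 12 and 7 counts. Mccc1os, opposite a carboxylase gene of leucine breakdown, had 3 and 13 counts, a ratio of 0.238 (0.0435 to 0.867), below 1 CPM in both libraries. Mccc1 had 667 and 669 counts, a ratio of 1.03 (0.923 to 1.15).

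The remaining genes included a divergent pair in which the ratio of the noncoding partner exceeded that of the sense gene. Fam120aos, on chromosome 13 at 48968112 to 48969905, starts 52 bases from Fam120a, which encodes an RNA-binding scaffold protein. Fam120aos had 365 counts in the force library and 235 in the control library, or 15.0 and 9.38 CPM, and a ratio of 1.60 (1.36 to 1.90). Fam120a had 13347 and 13136 counts, a ratio of 1.05 (1.02 to 1.07). Ccdc41os1, 10 bases from the centrosome gene Ccdc41 (Cep83) on chromosome 10, had 117 and 91 counts and an interval that only just excluded 1, at 1.0002 to 1.76. Ccdc41 had 807 and 794 counts.

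Phtf1os, at the start of Phtf1 on chromosome 3, had 165 counts in the force library and 198 in the control library, a ratio of 0.860 (0.695 to 1.06). Phtf1 had 2335 and 2176 counts, and Rsbn1, whose span also overlaps that of Phtf1os, had 3306 and 1943, a ratio of 1.76 (1.66 to 1.86). Kank4os lies inside Kank4 on chromosome 4 at 98793768 to 98799037 and had 130 and 181 counts, a ratio of 0.741 (0.587 to 0.934), with no count for Kank4 in either library. Srrm4os, beside the neural splicing factor gene Srrm4, had 48 and 27 counts, a ratio of 1.83 (1.12 to 3.06). Man2c1os had 40 and 47 counts, and its interval included 1.

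**Figure D3:**
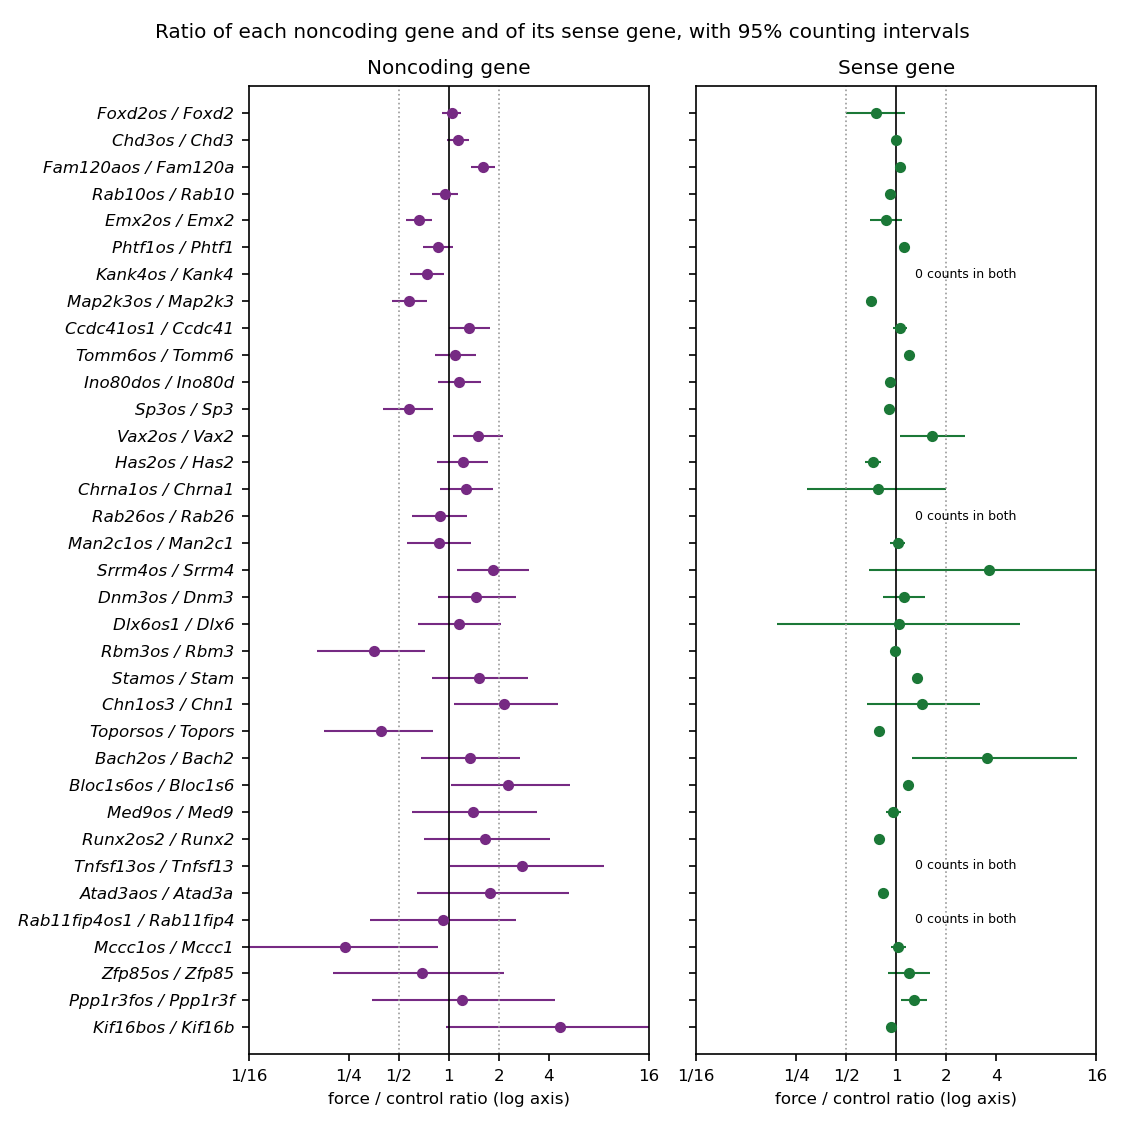
Ratio of the force to the control library for each noncoding gene (left, purple) and its sense gene (right, green) on a log axis, with 95% counting intervals cut at the edge of the panel and dotted lines at 1/2 and 2. None of the 26 sense genes at 1 CPM was called, against 3.06% called higher and 0.929% lower over all rows at 1 CPM. The called members are Rbm3os, Chn1os3 and Toporsos, which RefSeq types as protein coding.

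Each noncoding gene was next set against its sense gene, by the ratio of their counts in the force library over that in the control library, which needs no scaling and no gene length. All 35 sense genes had a row, and 31 had counts. The interval of this ratio was above 1 for 3 of the 31 pairs (9.68%) and below 1 for 4 (12.9%). Over 135 other lncRNA rows with at least 10 counts that overlap an mRNA gene on the opposite strand, Hk1os left out, the shares were 15.6% and 11.9%. The 31 pairs include divergent ones, and among the 11 with counts that are known to overlap on opposite strands, 0 were above 1 and 2 below, those of Phtf1os and Mccc1os. The 31 sense genes with counts had intervals above 1 in 8 cases and below 1 in 9, and a median log2 ratio of 0.02. Among all rows with at least 10 counts, 23.0% of intervals lay above 1 and 24.5% below. Of the 35 sense genes 26 reached 1 CPM, and 0 of these were called in either direction, while 9 did not reach it, Bach2 among them. Over all rows at 1 CPM, 3.06% were called higher and 0.929% lower.

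The pairs with a shift towards the noncoding gene were Fam120aos, at 1.53 (1.29 to 1.81), Has2os, at 1.67 (1.16 to 2.42), and Kif16bos, at 5.02 (1.04 to 47.8). Kif16bos, divergent from a kinesin gene of endosome transport, had 9 counts in the force library and 2 in the control library, against 1748 and 1951 for Kif16b. The interval of its own ratio, 0.961 to 44.2, included 1. Kif16bos and Mccc1os met the count minimum mainly through the library where they were higher, which favours a shift in these pairs. The pairs with a shift towards the sense gene were Rbm3os, at 0.360 (0.164 to 0.734), Sp3os, at 0.631 (0.442 to 0.894), Phtf1os, at 0.777 (0.623 to 0.968), and Mccc1os, at 0.231 (0.0422 to 0.848). With 99% intervals 4 pairs remained, those of Fam120aos, Has2os, Sp3os and Rbm3os. The spans of Has2os, Sp3os and Rbm3os overlap those of their sense genes, but opposite strands were not established for these pairs. Where their exons overlap, reads of the partners cannot be told apart.

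**Figure D4:**
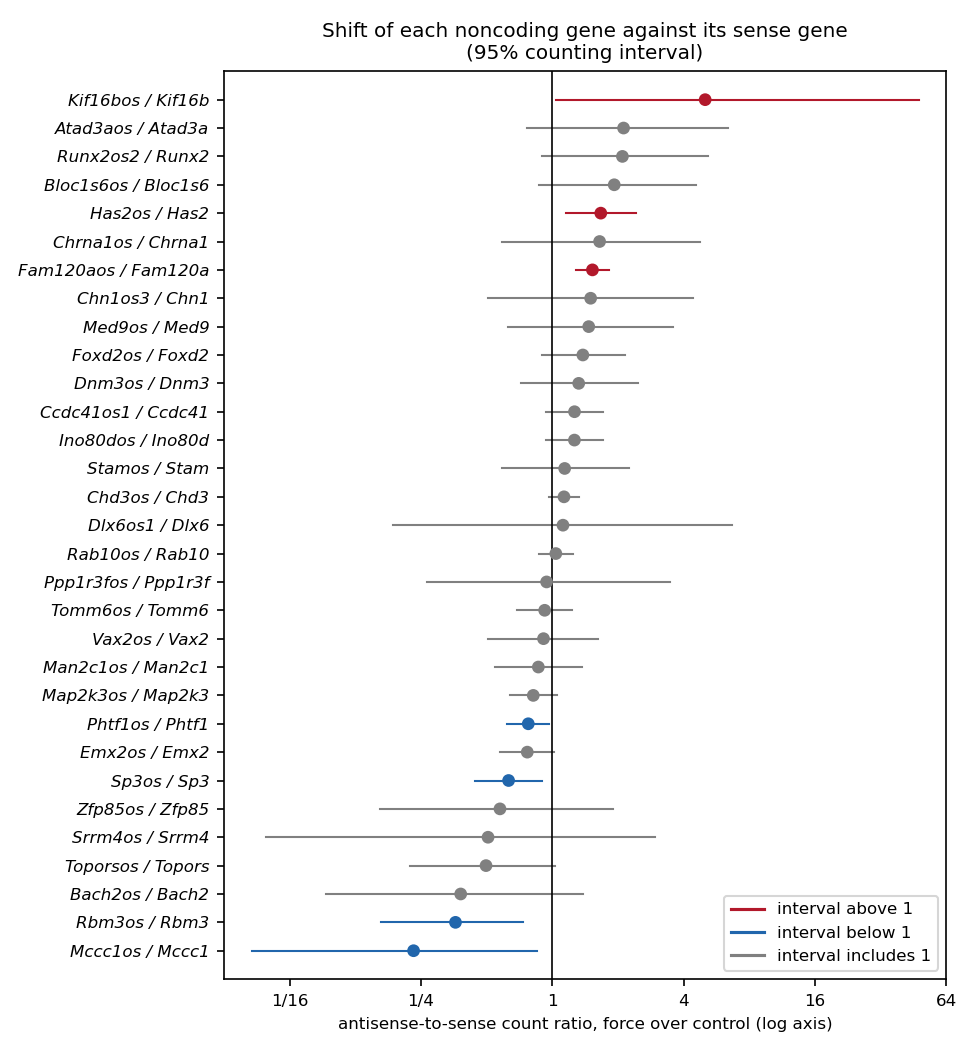
Count ratio of the noncoding gene to its sense gene in the force over the control library, on a log axis with 95% counting intervals, for the 31 pairs with counts. The red intervals (3 pairs) lie above 1, the blue ones (4 pairs) below 1, and the grey ones include 1.

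Across the 29 pairs whose sense gene had at least 10 counts, the log2 ratios of the partners had a Pearson correlation of 0.22 and a Spearman correlation of 0.29. For the 16 of these pairs with at least 50 counts in the noncoding gene the values were 0.44 and 0.43. The points share the same libraries and, where exons overlap, possibly the same reads, and the correlations are given as a description. Noncoding genes whose span overlaps that of the sense gene had log2 ratios from -1.91 to 1.39, with a median of 0.03 over 20. Those apart from it ran from -0.78 to 1.97, with a median of 0.38 over 14.

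Rows typed antisense RNA in the deposited table were not members. Of these 10, 7 had 0 counts in both libraries. Nespos, an imprinted antisense transcript of the Gnas locus, had 223 counts in the force library and 200 in the control library. The row of Gnas had 0 and 2. How reads of overlapping genes were assigned is not stated, so these counts do not compare the levels of Nespos and Gnas. Dlx1as had 31 and 41, against 288 and 394 for Dlx1, a homeobox gene. The intervals of Nespos and Dlx1as included 1.

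Of 16 other noncoding genes that overlap or adjoin a gene but are named without the suffix, 12 had a row and 5 reached 1 CPM. None of the 5 was called, against 3.06% called higher and 0.929% lower over all rows at 1 CPM. Their median log2 ratio was -0.03, with 2 intervals above 1 and 0 below. The shares of intervals over all rows at 1 CPM were 26.3% above and 28.6% below. Of the 5, the highest were Ftx, a noncoding gene of the X-inactivation centre, at a ratio of 1.20 (1.04 to 1.39), and Fendrr, divergent from Foxf1, at 1.12 (1.02 to 1.23). The lowest were Jpx, an activator of Xist, at 0.881 (0.754 to 1.03), and Pvt1, a neighbour of Myc, at 0.917 (0.797 to 1.05).

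Genes of RNA decay and of double-stranded RNA sensing and editing were also measured. Whether they act on the noncoding genes described here was not tested. All 17 genes of the nuclear exosome and its adaptors, which degrade short-lived noncoding transcripts, reached 1 CPM and none was called. Their median log2 ratio was -0.11, with 7 intervals below 1 and 1 above. Over all rows at 1 CPM, 28.6% of intervals lay below 1 and 26.3% above. The lowest were the nuclease Dis3 at a ratio of 0.750 (0.713 to 0.790) and Exosc2 at 0.776 (0.716 to 0.841), and the highest were Exosc8 at 1.13 (1.05 to 1.21) and Rbm7 at 1.07 (0.985 to 1.16). Of 15 genes of double-stranded RNA sensing and editing, 14 reached 1 CPM, 1 was called higher and 0 lower, and the median log2 ratio was 0.16, with 10 intervals above 1 and 3 below. The shares over all rows at 1 CPM were 3.06% called higher, 26.3% of intervals above 1 and 28.6% below. Oas1a, an interferon-induced sensor of double-stranded RNA, had 30 counts in the force library and 10 in the control library and was called higher at 3.10 (1.47 to 7.10). It reached 1 CPM in the force library only. The lowest of the 14 were the endosomal receptor Tlr3 at 0.706 (0.572 to 0.869) and the kinase Eif2ak2 at 0.874 (0.837 to 0.913).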

How the data were processed

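Total RNA of OCCM-30 cells was sequenced in 1 force and 1 control library. The authors deposited whole-number read counts per gene, with no normalization. The submitters' processing notes name HISAT2 and GRCm38, without the counter, annotation, strand setting or handling of multiply aligned reads. Columns were matched to samples by title.

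TMM factors (edgeR 4.0.16, R 4.3.3) were computed on all 44792 rows, and CPM on the scaled totals. Intervals of ratios are exact conditional binomial (Clopper-Pearson), and those of the antisense-to-sense ratio exact conditional odds ratio intervals (scipy 1.17.1), at 95%. The log2 ratio used a prior count of 0.5. A count of 0 allows up to 3 counts. Both procedures were tested on simulated counts. Positions and sequences are from RefSeq (GRCm38.p6), and genes up to 5000 bases apart with starts facing away were termed divergent. Members, lists and call rule were chosen with earlier results of these data known. The grouping by sense-gene role and the printed promoters were chosen after their values were seen. So were the genes Dlx1, Rsbn1, Senp3, Tnfsf12, Ndufs1, Mir199a-2, Mir214, Nespos and Gnas. Values are given in full for every called gene, every pair whose interval excluded 1 and the 10 genes with the most counts. From each further gene list up to 4 genes at 1 CPM are named, those with the highest and lowest ratios, and some of these are not reported here. The prior count in the call was varied after seeing the data. Scaling, CPM minimum, fold limit, interval, prior count and count minimum were varied. DESeq2 1.42.0 gave the alternative size factors.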

Additional observations from a re-analysis of the deposited data

How the results depend on the processing

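Total-count scaling, DESeq2 size factors and upper-quartile factors left 1 gene called higher and 2 lower, and moved no log2 ratio of the 17 genes described in full by more than 0.012. With no CPM minimum or a minimum of 0.5, 3 genes were called higher, with Bloc1s6os and Tnfsf13os added, and 3 lower, with Mccc1os added. At a fold limit of 1.5, 3 were called higher (Fam120aos, Srrm4os and Chn1os3) and 5 lower (Emx2os, Map2k3os, Sp3os, Rbm3os and Toporsos). Shares of called genes over all rows were computed only for the main rule. The counts at these other limits therefore cannot be read against a background. Among genes with at least 50 counts, 0 were called higher and 0 lower by the 2-fold rule, since the 3 called genes have fewer. The median log2 ratio ran from 0.15 with at least 50 counts to 0.38 for spans apart from the sense gene. The 7 pairs with an antisense-to-sense ratio past 1 became 4 with 99% intervals, 4 among genes with at least 50 counts and 2 among pairs known to overlap on opposite strands, where fewer pairs enter. A prior count of 5 in the call, an alternative chosen after seeing the data, left 0 genes called higher, since the log2 ratio of Chn1os3 was 0.87 against 1.07, and 2 lower. The same prior count gave log2 ratios of 1.02 against 1.97 for Kif16bos and -1.15 against -1.91 for Mccc1os. None of the 68 alternative log2 ratios of the named genes changed sign. No paired analysis was possible because each group has 1 library. Depth limits the 11 genes below 1 CPM most, with intervals up to 44.2 for the ratio of Kif16bos.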
